A study of Mus musculus with 6 samples.

Results

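Transcripts of the vacuolar H+-ATPase (V-ATPase), the lysosomal cathepsins, the lysosome-associated membrane proteins LAMP1 and LAMP2 and the mucolipin channels were compared between wild-type (WT) and Yme1l-/- mouse embryonic fibroblasts (MEFs). Members were taken by gene symbol from the 51499 loci of the count table, which gave 49 loci: 26 of V-ATPase subunits and accessory proteins, 18 of cathepsins, and 5 of LAMP and mucolipin genes. The Yme1l gene product YME1L is a protease in the inner membrane of mitochondria that uses ATP, and the study asked why its loss leads to inflammation. Poly(A)-selected RNA from 3 independent cultures per genotype was sequenced. All cells came from MEFs that carried Yme1l alleles flanked by loxP sites and had been immortalized with SV40 large T antigen. After transduction with Cre recombinase, single clones were grown up, and WT cells kept both loxP-flanked alleles (labelled Yme1l fl/fl) whereas Yme1l-/- cells had lost Yme1l. How many clones the cultures of a genotype represent is not stated. The p-values therefore measure the spread between cultures, and clone and genotype cannot be told apart.

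The V-ATPase is a rotary proton pump that acidifies lysosomes, endosomes and secretory vesicles. Its cytosolic V1 sector hydrolyses ATP, its membrane-embedded V0 sector carries the protons, and several subunits exist as isoforms encoded by separate genes, some of them restricted to kidney, bone or brain. Cathepsins are the proteases of the acidic lumen, most of them papain-like cysteine proteases, with cathepsin D as the main aspartic and cathepsin A as a serine member. LAMP1 and LAMP2 are the abundant glycoproteins of the lysosomal membrane, and mucolipins release calcium from the lysosome. Many of these genes are controlled by the transcription factors TFEB, TFE3 and MITF, which bind an E-box-containing sequence in lysosomal gene promoters.

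The promoters of several members hold that sequence, and the stretches around it are shown to make this common feature visible. A RefSeq promoter (GRCm38.p6, 250 bases before to 50 after the transcription start) was found for 37 of the 49 members. The octamer TCACGTGA, which is its own reverse complement, occurred in the promoters of 6 of these 37 (16.2%), against 1.12% of 27025 genes with a promoter. In each stretch below, written 5′ to 3′ on the strand of the gene, capitals mark the octamer, and positions are counted from the start site as +1 with no position 0.
Atp6v0d1, chr8:105566050-105566079, minus strand, octamer from -4: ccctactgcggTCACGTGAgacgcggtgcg
Atp6v0e, chr17:26676387-26676416, plus strand, octamer from +3: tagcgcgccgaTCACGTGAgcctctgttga
Atp6v1a, chr16:44139373-44139402, minus strand, octamer from -132: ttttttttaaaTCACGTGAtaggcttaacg
Ctsa, chr2:164833749-164833778, plus strand, octamer from -13: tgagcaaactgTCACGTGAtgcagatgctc
Ctsa, chr2:164833766-164833795, plus strand, octamer from +5: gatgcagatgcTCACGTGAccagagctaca
Ctsd, chr7:142387908-142387937, minus strand, octamer from -99: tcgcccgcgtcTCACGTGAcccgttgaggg
Mcoln1, chr8:3500462-3500491, plus strand, octamer from -46: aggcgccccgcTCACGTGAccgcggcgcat

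The core hexamer CACGTG, which the octamer contains, occurred in the promoters of 11 of the 37 members (29.7%), against 8.09% of all genes with a promoter. Lamp1 held 4 copies within the 70 bases before its start site, and capitals mark the hexamer here. The number and spacing of copies in the other hexamer genes were not compared.
Lamp1, chr8:13159091-13159160, plus strand: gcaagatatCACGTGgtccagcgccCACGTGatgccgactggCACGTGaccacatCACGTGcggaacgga
Members with these motifs were found among those that rose, those that fell and those that did not pass the test. Of the 6 octamer genes, Atp6v0d1 and Atp6v0e rose, Mcoln1 fell, and Atp6v1a, Ctsa and Ctsd did not pass the test. Of the 11 hexamer genes, 10 were tested, of which 2 rose and 5 fell. Over all 13867 tested loci, 33.6% rose and 34.1% fell. A match is a description of the letters in this window and not a measured binding site.

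Library totals were 33180867 to 34012520 fragments in WT cultures. Yme1l-/- culture 1 held 34624075 fragments, and Yme1l-/- cultures 2 and 3 held 49351107 and 49157459. The targeted locus, Yme1l1, held 6327, 6292 and 5968 fragments in the WT cultures and 1327, 1963 and 2067 in the Yme1l-/- cultures, a fall to 20.8% of WT (log2 fold change -2.27 ± 0.05 SE, adjusted p = 2.43e-11 in edgeR's quasi-likelihood test). Counts per locus do not show which part of the gene the remaining fragments cover. The clones differed widely, since 67.7% of the 13867 tested loci were called at an adjusted p under 0.05, 33.6% higher and 34.1% lower in Yme1l-/- cells. Whole chromosomes were also shifted, with medians from -0.44 on chromosome 12 to 0.59 on chromosome 15 on the log2 scale, against a median of 0.00 over all loci. Where removing the chromosome median ended a member's call, added one or moved a called value by over 1.5 times, the adjusted value is given beside it, and the part of these shifts in a difference of a single gene was not tested. The fibroblast label was checked with 10 markers, of which 8 passed the filter. Of these, 6 were lower in Yme1l-/- cells, Col1a1 was higher (log2 fold change 0.43 ± 0.06) and Pdgfra was not called. The summed level of the 10 markers was 10839 to 11402 CPM (fragment counts scaled by 1e6 over the TMM-adjusted library size) in WT and 6646 to 7133 CPM in Yme1l-/- cultures. The defining markers Thy1 and Lum had at most 6 and 11 fragments in any library. WT culture 2 stood apart in some of these markers, with Col3a1 at 301 CPM against 86.3 and 91.1 CPM and Dcn at 7.85 CPM against 1.57 and 1.56 CPM in the other WT cultures, but not in Fn1, Col1a1 or Col1a2. Of the tested members, 12 share exon bases with a gene on the opposite strand, and their fragments may not be separable: Ctsl (Gm47123), Ctsb (Fdft1), Ctsz (Nelfcd), Ctsw (Fibp), Ctsa (Neurl2 and Pltp), Lamp1 (Grtp1), Atp6v1e1 (Slc25a18), Atp6v1g2 (Nfkbil1), Atp6v1h (Rgs20), Atp6v0a2 (4930404A12Rik), Atp6v0a4 (Tmem213) and Atp6v0b (Gm12841). On the same strand, Ctsl shares exon bases with Gm49230 and Ctsd with Gm49369. Macrophage and osteoclast markers, a source of cathepsins in bone and tissue, summed to 2.36 to 2.93 CPM in WT and 4.07 to 4.38 CPM in Yme1l-/- cultures. Of these 13 markers only Cd14 was tested, and it was called higher (log2 fold change 0.37 ± 0.14). Cd14 made up most of both sums, with a mean of 2.37 CPM in WT and 3.07 CPM in Yme1l-/- cultures. Adgre1, Tyrobp, Marco, Dcstamp and Calcr were at 0 in every library. In bulk RNA of this kind, fewer cells expressing a gene and less RNA per cell cannot be told apart.

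Most tested cathepsin transcripts fell and V-ATPase transcripts moved in both directions in Yme1l-/- cells. Of the 49 members, 32 passed the filter on low counts and were tested, of which 10 rose, 15 fell and 7 did not pass the test. The 3 Yme1l-/- cultures lay above all WT cultures for 10 of these 32 loci and below them for 16, against 35.9% and 36.0% of all tested loci (71.9% in either direction). The median log2 fold change of the 32 loci was -0.11. Among V-ATPase loci 9 of 19 tested rose and 5 fell, with a median of 0.00, and among cathepsins 1 of 10 rose and 7 fell, with a median of -0.96, where 33.6% of all tested loci rose and 34.1% fell. The share of members called, 25 of 32 or 78.1%, stood near the background of 67.7%. Ctsc, Ctsh, Ctsf and Atp6v0e2 passed the filter only through their WT libraries, so their fall was a condition of being tested, and these counts are no support beyond a description. Of the 28 tested members with at least 10 fragments in every library, 10 rose and 11 fell. The 7 cathepsins among them gave 1 higher and 4 lower, with a median of -0.40. At least a 2-fold fall with a call was found for 5 members (Ctsh, Ctsc, Ctsf, Atp6v0e2 and Ctsz) and at least a 2-fold rise for Atp6v1g2, where 8.63% and 9.10% of all tested loci crossed these limits.

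**Figure D1:**
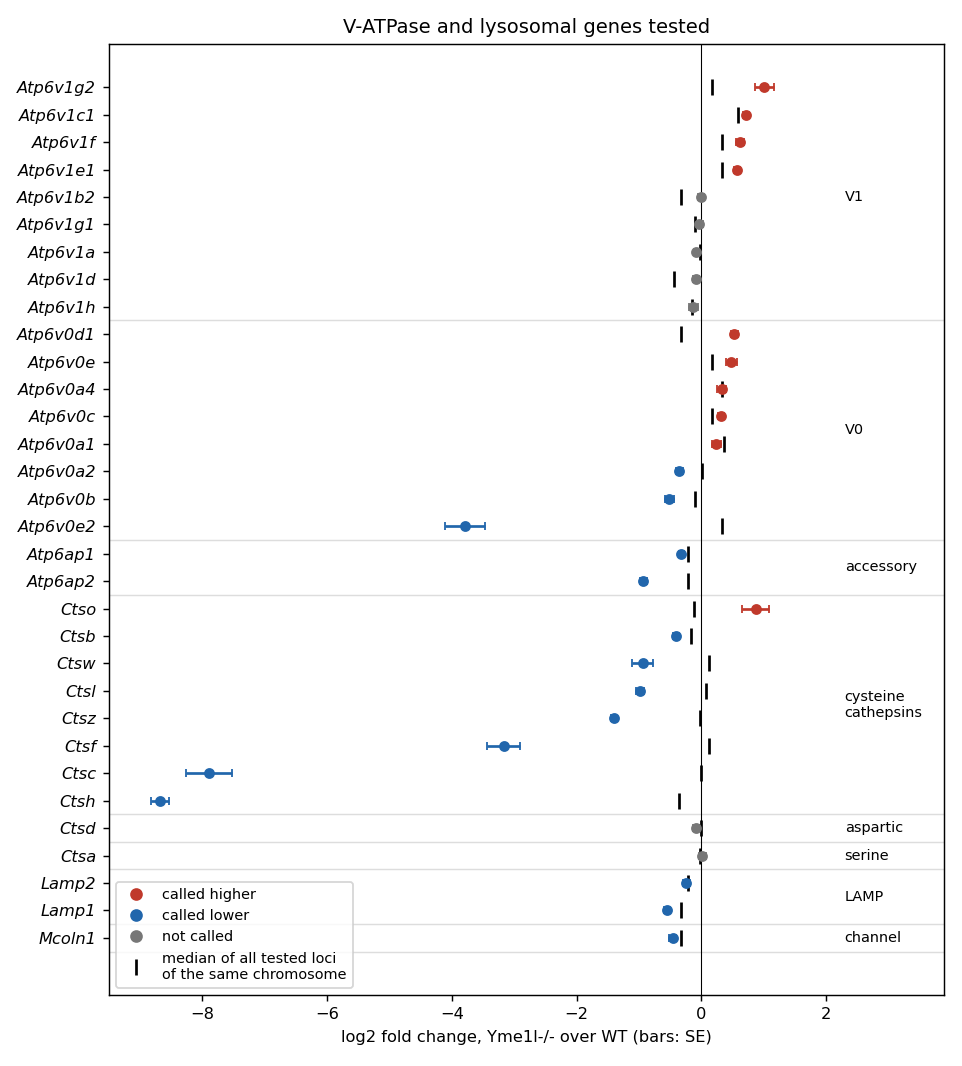
Log2 fold change (Yme1l-/- over WT) of the tested members with bars for its standard error, in red for loci called higher, blue for loci called lower and grey for loci not called. Black ticks mark the median of all tested loci of the same chromosome. Points lie on both sides of 0 for the V-ATPase sectors, while 7 of the 10 tested cathepsins and the 3 tested membrane loci were called lower (34.1% of all tested loci). Ctsc, Ctsh and Ctsf passed the filter only through WT, and Lamp2 was not called with chromosome medians removed.

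Among the cathepsins, 2 loci went from a clear level in WT to almost nothing in Yme1l-/- cells. Ctsh encodes cathepsin H, an aminopeptidase of the papain family, and lies on chromosome 9 (90054152 to 90076089, GRCm38). It held 949, 948 and 901 fragments in WT cultures 1 to 3 and 3, 4 and 2 fragments in the Yme1l-/- cultures. Every WT library was far above every Yme1l-/- library, and the pooled level in Yme1l-/- cells was 0.232% of WT (95% exact interval 0.106 to 0.442%, counting error only). The fitted log2 fold change was -8.68 ± 0.15 with an adjusted p of 5.39e-12 in edgeR. Ctsc encodes cathepsin C (dipeptidyl peptidase I), which activates the granule serine proteases of immune cells, and lies on chromosome 7 (88278085 to 88310888). Its fragments numbered 236, 319 and 210 in WT and 0, 1 and 3 in Yme1l-/- cultures. WT culture 2 was the highest, and the genotypes again did not overlap, with a pooled level at 0.378% of WT (0.103 to 0.971%) and an edgeR adjusted p of 8.70e-09. The fitted log2 fold change was -7.90 ± 0.37, and -9.01 without Yme1l-/- culture 3, which held 3 of the 4 Yme1l-/- fragments. Ctsh and Ctsc passed the filter only through WT, so their fall was a condition of being tested. The medians were -0.36 for chromosome 9 and -0.01 for chromosome 7 on the log2 scale.

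Ctsf, which encodes cathepsin F (chromosome 19, 4855130 to 4860918), was a low transcript in both genotypes. Counts were 62, 62 and 67 in WT and 8, 7 and 14 in Yme1l-/- cultures, which puts the pooled Yme1l-/- level at 10.97% of WT (7.15 to 16.3%). The libraries of the genotypes were well separated, and the log2 fold change was -3.17 ± 0.27 (edgeR adjusted p = 1.09e-06). Ctsf also passed the filter only through WT, so its fall was a condition of being tested.

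Ctsz, by contrast, fell from a high level with little spread. Its product, cathepsin Z (also cathepsin X), is a carboxypeptidase, and the gene lies on chromosome 2 (174427493 to 174439039). Levels were 151, 148 and 148 CPM in WT and 56.9, 56.6 and 55.5 CPM in Yme1l-/- cultures, or 37.8% of WT. All 3 libraries of each genotype lay close together, and the difference (log2 fold change -1.40 ± 0.04, edgeR adjusted p = 3.01e-10) was far larger than this spread. The median of chromosome 2 was -0.02.

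The cathepsins with the highest levels per length in WT, Ctsl and Ctsb, fell as well. Cathepsin L is an endopeptidase with a broad role in lysosomal protein breakdown, and Ctsl measured 259, 294 and 243 CPM in WT and 139, 132 and 133 CPM in Yme1l-/- cultures. WT culture 2 was again the highest, and the fall to 50.8% of WT (log2 fold change -0.98 ± 0.06, edgeR adjusted p = 1.66e-07) kept the genotypes apart in every library. Ctsb, which encodes the abundant cathepsin B, measured 356, 382 and 343 CPM in WT and 282, 270.2 and 265 CPM in Yme1l-/- cultures. Its fall was smaller than that of Ctsl (log2 fold change -0.40 ± 0.05, edgeR adjusted p = 2.28e-05), and relative to the chromosome 14 median of -0.17 it was at -0.23 and still called. Ctsw, known for its expression in cytotoxic lymphocytes, was low, with 3.17, 3.97 and 3.34 CPM in WT and 2.11, 1.51 and 1.88 CPM in Yme1l-/- cultures. The libraries did not overlap (log2 fold change -0.94 ± 0.17, edgeR adjusted p = 4.61e-04), but fragments of Fibp on the opposite strand may be among them.

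Ctso was the sole cathepsin locus that rose. It encodes cathepsin O, a little-studied cysteine protease, and measured 1.87, 2.6 and 1.29 CPM in WT and 3.43, 3.59 and 3.53 CPM in Yme1l-/- cultures. The WT libraries varied more than the Yme1l-/- libraries but stayed below them (log2 fold change 0.87 ± 0.21, edgeR adjusted p = 0.00322).

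The aspartic and serine cathepsins that could be tested, Ctsd and Ctsa, did not pass the test. Ctsa encodes cathepsin A, the carboxypeptidase that protects beta-galactosidase and neuraminidase in the lysosome, and measured 101, 112 and 94.0 CPM in WT and 105, 106 and 101 CPM in Yme1l-/- cultures. The Yme1l-/- libraries lay within the WT range (log2 fold change 0.02 ± 0.06, edgeR adjusted p = 0.786). Ctsd, the gene of cathepsin D, shares a merged locus with Ifitm10 and AC034099.1, whose fragments cannot be separated from it. That locus measured 225, 231 and 222 CPM in WT and 229.6, 207 and 203 CPM in Yme1l-/- cultures, and the genotypes overlapped because of Yme1l-/- culture 1 (log2 fold change -0.09 ± 0.05, edgeR adjusted p = 0.169). Without that culture the locus was called lower (-0.14, adjusted p = 0.00886).

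The remaining 8 cathepsin loci were not tested. Ctsk, the collagen-degrading cathepsin of osteoclasts, held 7, 12 and 8 fragments in WT and 8, 8 and 5 in Yme1l-/- cultures, and Ctsq at most 2 in any library. Ctse, Ctsg, Ctsj, Ctsm, Ctsr and Ctss, genes known from stomach, granulocytes, placenta and antigen-presenting cells, had no fragment in any library.

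**Figure D2:**
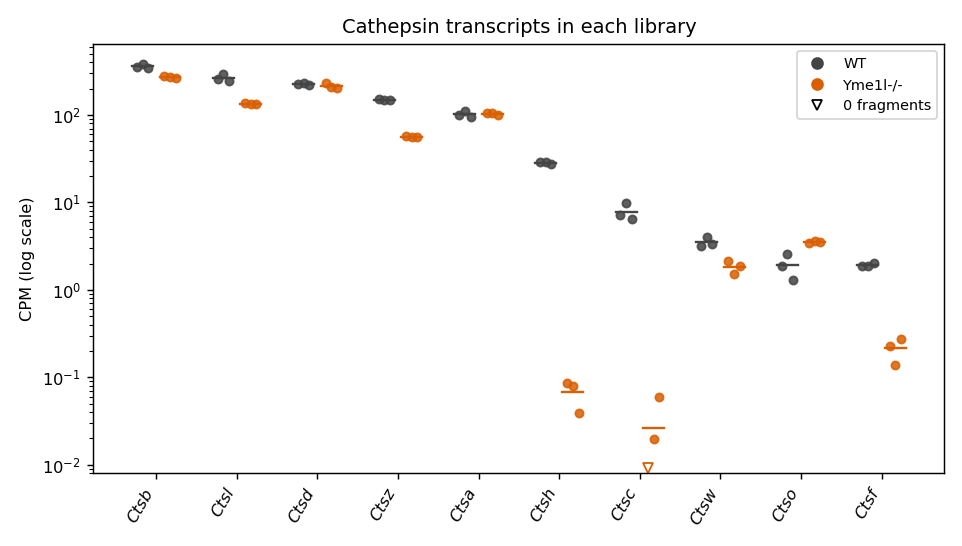
CPM of the 10 tested cathepsin loci in each library on a log axis, with 3 WT and 3 Yme1l-/- cultures per locus and a bar at each mean. Libraries without a fragment are drawn at the lower edge. Ctsh and Ctsc drop by over 2 decades, and Ctsa and Ctsd overlap between the genotypes.

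The falls changed the make-up of the cathepsin pool. In the authors' FPKM values, which are corrected for transcript length and given once per genotype without an error, Ctsl was the leading cathepsin in WT with 196 FPKM or 29.5% of the sum over cathepsin loci. In Yme1l-/- cells it measured 104 FPKM or 24.3%. Ctsb changed from 21.2% to 25.3% of the sum, Ctsd from 17.2% to 25.05%, Ctsa from 9.28% to 14.3% and Ctsz from 17.3% to 10.2%. On this scale Ctsl, Ctsb and Ctsd differed little in Yme1l-/- cells (104, 108 and 107 FPKM), whereas Ctsl led clearly in WT. Cathepsin H supplied 4.204% of the WT sum and 0.12 FPKM remained in Yme1l-/- cells. Summed over the cathepsin loci, the levels were 1135, 1215 and 1091 CPM in WT and 818, 777 and 764 CPM in Yme1l-/- cultures, so the highest Yme1l-/- library was below the lowest WT library. Most of this gap lay in the cysteine cathepsins, with 809, 871 and 775 CPM against 483, 465 and 459.8 CPM.

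**Figure D3:**
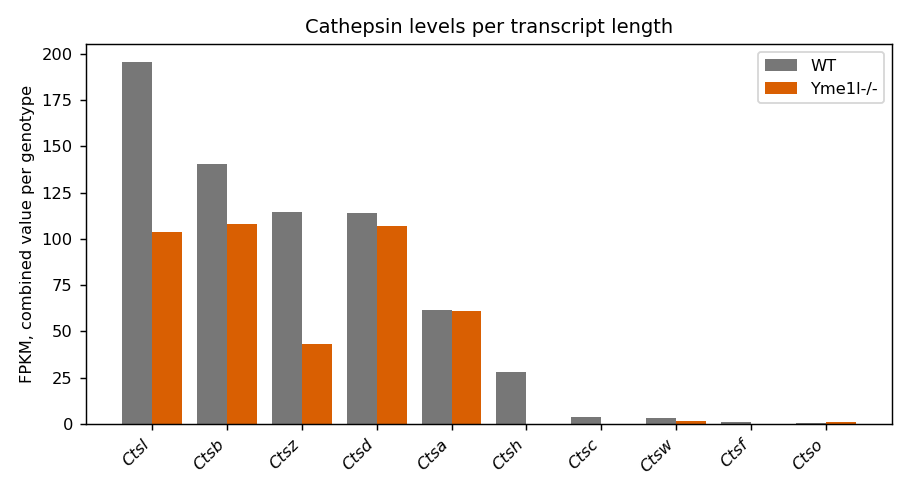
FPKM of the 10 tested cathepsin loci as bars, with the authors' single combined value per genotype (grey for WT, orange for Yme1l-/-) and no error. Ctsl leads in WT with 196 FPKM and stands at 104 FPKM in Yme1l-/- cells, next to Ctsb and Ctsd, and Ctsz goes from 115 to 43.5 FPKM.

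Of the 13 V1 loci, 9 were tested, of which 4 rose and 5 did not pass the test, where 33.6% of all tested loci rose and 34.1% fell. The loci that rose were Atp6v1c1, Atp6v1f, Atp6v1e1 and Atp6v1g2. Atp6v1c1, for subunit C1 of the regulatory collar (chromosome 15, 38661933 to 38692446), measured 68.8, 71.0 and 63.6 CPM in WT and 115, 108 and 112 CPM in Yme1l-/- cultures. These did not overlap (log2 fold change 0.72 ± 0.05, edgeR adjusted p = 3.62e-07), but the median of chromosome 15 was itself 0.59, and with chromosome medians removed the value was 0.13 and was no longer called (adjusted p = 0.0529). Atp6v1f, for the central-stalk subunit F, measured 37.4, 38.0 and 33.7 CPM in WT and 58.8, 53.8 and 55.3 CPM in Yme1l-/- cultures (log2 fold change 0.62 ± 0.06, edgeR adjusted p = 3.11e-06). Atp6v1e1, for the peripheral-stalk subunit E1, measured 71.0, 70.9 and 66.0 CPM in WT and 105, 102 and 102 CPM in Yme1l-/- cultures (0.57 ± 0.05, adjusted p = 9.35e-07). Both lie on chromosome 6, whose median was 0.34, and both stayed called after its removal, at 0.28 and 0.23.

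Subunit G, the partner of E in the peripheral stalk, showed a difference between its isoform genes. Atp6v1g2, the isoform known from brain (chromosome 17, 35233660 to 35238767), rose from 1.63, 1.47 and 1.44 CPM in WT to 3.11, 3.13 and 2.9 CPM in Yme1l-/- cultures. All Yme1l-/- libraries were above the WT range (log2 fold change 1.01 ± 0.15, edgeR adjusted p = 8.96e-05), though fragments of Nfkbil1 on the opposite strand may be among them. The ubiquitous Atp6v1g1 was by far the more abundant, at 87.9 FPKM in WT against 1.21 FPKM for Atp6v1g2, and measured 90.8, 86.7 and 80.8 CPM in WT and 90.2, 80.2 and 82.2 CPM in Yme1l-/- cultures. These libraries overlapped (log2 fold change -0.03 ± 0.06, edgeR adjusted p = 0.649), and Atp6v1g3 had no fragment. The difference between these isoform genes in their response was not tested.

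The catalytic head did not pass the test at either subunit. Atp6v1a, for the ATP-hydrolysing subunit A, measured 121, 128 and 121 CPM in WT and 117, 116 and 116 CPM in Yme1l-/- cultures, below WT in every library but by only 0.08 on the log2 scale (SE 0.04, edgeR adjusted p = 0.123). Atp6v1b2, for the widely expressed isoform of subunit B, measured 85.2, 81.3 and 83.2 CPM in WT and 82.9, 86.0 and 81.2 CPM in Yme1l-/- cultures, which overlapped (0.00 ± 0.05, adjusted p = 0.964). It lies on chromosome 8, whose median was -0.32, and relative to that median it was called higher (0.32, adjusted p = 6.98e-05). The same held for Atp6v1d on chromosome 12 (subunit D of the rotor), at -0.08 ± 0.05 as measured and 0.36 relative to a chromosome median of -0.44 (adjusted p = 1.67e-04). Atp6v1h, for the regulatory subunit H, was at -0.13 ± 0.07 (adjusted p = 0.133). It was called lower without Yme1l-/- culture 1 (-0.20, edgeR adjusted p = 0.0102), and was at 0.03 and not called with chromosome medians removed. The tissue-restricted isoforms were close to absent: Atp6v1b1 held 0, 0 and 0 fragments in WT and 1, 17 and 10 in Yme1l-/- cultures, Atp6v1c2 at most 10, and Atp6v1e2 a single fragment in 1 library. Over the V1 loci together, the summed level was 571, 571 and 539 CPM in WT and 662, 634 and 636 CPM in Yme1l-/- cultures.

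In the V0 sector 8 of 10 loci were tested, of which 5 rose and 3 fell, beside 33.6% and 34.1% of all tested loci. With chromosome medians removed 3 were called higher and 3 lower, and the median log2 fold change went from 0.28 to -0.06. Atp6v0d1, for the subunit d that couples the rotor to the V0 ring, measured 36.4, 38.9 and 35.3 CPM in WT and 52.5, 51.2 and 55.7 CPM in Yme1l-/- cultures. The libraries were clearly apart (log2 fold change 0.53 ± 0.06, edgeR adjusted p = 6.57e-06), on a chromosome 8 whose median was -0.32, so that its distance from that median was 0.84. The proteolipid gene Atp6v0c, whose product forms the proton-carrying ring, had the highest level per length of the V-ATPase loci (309 FPKM in WT), but its locus is merged with Tbc1d24 and Gm43796. That locus measured 353, 332 and 326 CPM in WT and 433, 411 and 419 CPM in Yme1l-/- cultures (0.32 ± 0.05, adjusted p = 7.78e-05), and relative to the chromosome 17 median of 0.17 it was at 0.15 (adjusted p = 0.0129). Atp6v0b, for the other ring subunit c'', moved the other way, from 65.5, 63.0 and 57.9 CPM in WT to 49.01, 42.0 and 40.5 CPM in Yme1l-/- cultures. It was below WT in every library (-0.51 ± 0.07, adjusted p = 9.70e-05).

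The isoform genes of subunit e, a small hydrophobic protein of V0, moved in opposite directions. Atp6v0e rose from 66.9, 58.8 and 55.6 CPM in WT to 94.3, 78.5 and 79.7 CPM in Yme1l-/- cultures, without overlap (log2 fold change 0.48 ± 0.09, edgeR adjusted p = 6.95e-04), and was at 0.31 relative to the chromosome 17 median (adjusted p = 0.0103). Atp6v0e2, the isoform known from brain (chromosome 6, 48537615 to 48541801), held 47, 36 and 41 fragments in WT and 3, 4 and 5 in Yme1l-/- cultures. Its pooled Yme1l-/- level was 6.99% of WT (3.52 to 12.7%), with a log2 fold change of -3.79 ± 0.32 (adjusted p = 1.03e-06), while the median of chromosome 6 was 0.34. Atp6v0e2 passed the filter only through WT, so its fall was a condition of being tested. Because Atp6v0e stood at 94.995 FPKM in WT and Atp6v0e2 at 0.764 FPKM, the fall of Atp6v0e2 concerned a small fraction of the subunit e transcripts. A difference in response between Atp6v0e and Atp6v0e2 was not tested.

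Subunit a, which holds the proton half-channels and directs the pump to its membrane, also differed by isoform gene. The difference between these genes in their response was not tested. Atp6v0a2 fell, from 119.5, 111 and 121 CPM in WT to 93.0, 90.3 and 92.6 CPM in Yme1l-/- cultures, with no overlap (log2 fold change -0.35 ± 0.05, edgeR adjusted p = 5.23e-05). Tcirg1, which encodes the a3 isoform of osteoclasts and lysosomes and lies outside the symbol rule, rose from 71.4, 70.6 and 68.1 CPM to 95.4, 99.6 and 99.98 CPM (0.49 ± 0.05, adjusted p = 2.24e-06). Atp6v0a1 was at 33.3, 33.05 and 35.5 CPM in WT and 35.5, 41.0 and 43.9 CPM in Yme1l-/- cultures, a rise by 0.24 ± 0.07 (adjusted p = 0.0128). That call was lost without WT culture 2 (0.22, adjusted p = 0.0565) and without Yme1l-/- culture 3 (0.18, adjusted p = 0.0588), and relative to the chromosome 11 median of 0.36 the gene was at -0.11 and not called. The kidney isoform Atp6v0a4 lies in a locus merged with D630045J12Rik, which measured 28.1, 30.2 and 32.8 CPM in WT and 34.8, 39.3 and 40.1 CPM in Yme1l-/- cultures (0.33 ± 0.07, adjusted p = 0.00191). Relative to the chromosome 6 median this merged locus was at -0.01 and not called. Atp6v0d2, the osteoclast isoform of subunit d, had no fragment, and the pseudogene Atp6v0c-ps1 at most 1. Without the merged loci, the summed level of V0 was 323, 306 and 307 CPM in WT and 324, 303 and 313 CPM in Yme1l-/- cultures, with the libraries of the genotypes interleaved.

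**Figure D4:**
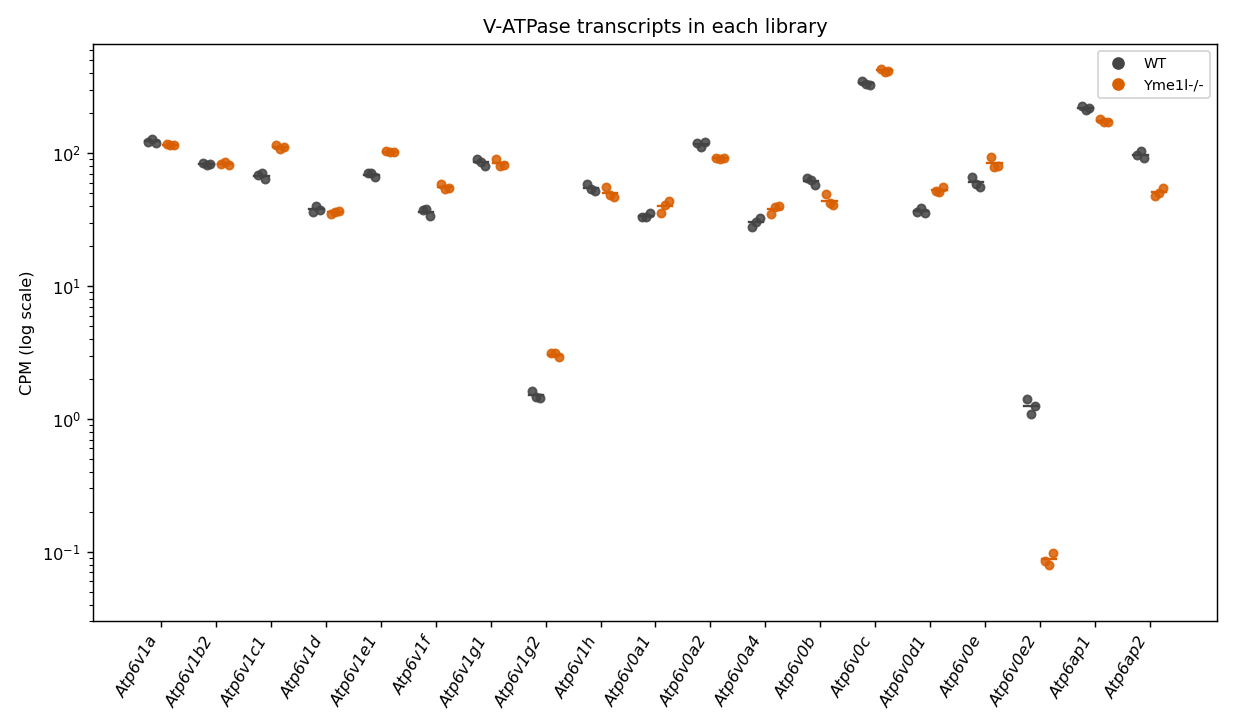
CPM of the tested V-ATPase loci in each library on a log axis, with 3 WT and 3 Yme1l-/- cultures per locus and a bar at each mean. Atp6v0e2 shows the widest gap between the genotypes, and Atp6v1g1 and Atp6v1b2 are examples of loci whose libraries overlap.

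Both expressed accessory subunits fell. Atp6ap2 encodes the (pro)renin receptor, which helps to assemble V0, and lies on the X chromosome (12587801 to 12617049). It measured 96.8, 104 and 91.5 CPM in WT and 48.0, 50.6 and 54.6 CPM in Yme1l-/- cultures, or 52.5% of WT. No library overlapped (log2 fold change -0.93 ± 0.06, edgeR adjusted p = 1.71e-07), and the value was -0.72 relative to the X chromosome median of -0.21. Atp6ap1, for the accessory glycoprotein Ac45, measured 226, 214 and 219 CPM in WT and 183, 172 and 172 CPM in Yme1l-/- cultures (-0.32 ± 0.04, adjusted p = 4.98e-05). Relative to the same median it was at -0.11 (adjusted p = 0.045). Atp6ap1l had no fragment.

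The lysosomal membrane loci that could be tested were lower in Yme1l-/- cells. Lamp1, at 391.5 FPKM in WT the member with the highest level per length, measured 842, 840.1 and 802 CPM in WT and 598, 548 and 547 CPM in Yme1l-/- cultures. The gap between the genotypes (log2 fold change -0.55 ± 0.05, edgeR adjusted p = 3.37e-06) was several times the spread within them. Lamp2, on the X chromosome, measured 209, 233 and 196 CPM in WT and 183, 177 and 181 CPM in Yme1l-/- cultures (-0.24 ± 0.06, adjusted p = 0.00382), and relative to the chromosome median it was at -0.03 and not called. Mcoln1, for the calcium channel TRPML1, measured 53.0, 52.3 and 53.9 CPM in WT and 36.0, 39.7 and 40.2 CPM in Yme1l-/- cultures (-0.46 ± 0.05, adjusted p = 1.54e-05). Lamp1 and Mcoln1 lie on chromosome 8 (median -0.32) and stayed called relative to it, at -0.24 and -0.14. Mcoln2 and Mcoln3 held at most 2 and 1 fragments in any library.

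With chromosome medians removed from every locus, 9 of the tested members were called higher and 14 lower, against 31.2% and 31.6% of 13802 loci. The cathepsin counts were then the same, 1 higher and 7 lower, and the V-ATPase counts were 8 higher and 5 lower.

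Other genes of the lysosome included called loci in both directions, as did all tested loci, of which 33.6% rose and 34.1% fell. Among V-ATPase partners and assembly factors, 6 of 11 tested rose and 2 fell (median log2 fold change 0.35), with Oxr1, a TLDc-domain gene, at 1.37 ± 0.05 and the merged locus of Rnasek, 0610010K14Rik and Gm21988 at 0.76 ± 0.05. The lowest of them, Ncoa7, lies in a locus merged with Hint3 (-0.35 ± 0.07). Soluble hydrolases and cofactors other than cathepsins gave 16 higher and 8 lower of 35 tested (median 0.08). Among them the sulfatases Arsa (1.13 ± 0.06) and Arsb (1.10 ± 0.05) rose, whereas the glycosidase Gusb (-0.89 ± 0.05) and the cysteine protease Lgmn (-0.74 ± 0.05) fell, so not every lysosomal enzyme moved with the cathepsins. Lysosomal membrane proteins outside the members gave 11 higher and 6 lower of 22 tested (median 0.08), led by the iron transporter Slc11a2 (1.19 ± 0.04) and by Cln3 (-2.72 ± 0.35), which had 4, 10 and 23 fragments in Yme1l-/- cultures and passed the filter only through WT. Sorting genes, which carry hydrolases to the lysosome, gave 8 higher and 3 lower of 14 tested (median 0.19), with the mannose 6-phosphate receptor Igf2r at 0.96 ± 0.06 and the retromer subunit Vps35 at -0.67 ± 0.05. Each of these values is from the same edgeR fit without removal of chromosome medians, and the genes named were called. Several of them lie on shifted chromosomes, so that their distance from the chromosome median differs from the value given by over 1.5 times. These are Arsa, Oxr1 and Slc11a2 on chromosome 15 (median 0.59), Rnasek on chromosome 11 (0.36), Ncoa7 on chromosome 10 (0.30), Vps35 on chromosome 8 (-0.32) and Lgmn on chromosome 12 (-0.44).

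Among the transcription factors of lysosomal genes, Tfeb and Mitf rose and Tfe3 fell. Tfeb went from 7.43, 6.96 and 7.96 CPM in WT to 11.7, 10.9 and 12.2 CPM in Yme1l-/- cultures (log2 fold change 0.64 ± 0.09, edgeR adjusted p = 8.16e-05). Tfe3 fell from 101, 99.3 and 101 CPM to 72.4, 76.0 and 77.2 CPM (-0.41 ± 0.04, adjusted p = 8.20e-06). Mitf rose from 2.39, 3.88 and 2.79 CPM to 4.34, 4.92 and 4.91 CPM (0.65 ± 0.17, adjusted p = 0.00542). No library of one genotype overlapped the other for these factors. Tfe3 lies on the X chromosome (median -0.21) and Mitf on chromosome 6 (median 0.34), whose shifts had the same sign as the differences of these genes. The wider list of these factors, their regulators and targets held 6 higher and 6 lower loci of 18 tested, beside 33.6% and 34.1% of all tested loci. Its highest gene was Gpnmb, a glycoprotein gene of lysosomes and melanosomes, with 7.73, 16.6 and 7.69 CPM in WT and 35.1, 36.9 and 39.2 CPM in Yme1l-/- cultures (1.80 ± 0.34, edgeR adjusted p = 0.00716). WT culture 2 was the highest WT library for Gpnmb but remained below all Yme1l-/- libraries. The lowest, Rragb, which encodes a Rag GTPase that recruits mTORC1 to the lysosome, fell from 264, 288 and 238 fragments in WT to 4, 2 and 5 in Yme1l-/- cultures, and passed the filter only through WT.

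Genes of cathepsin and serine protease inhibitors were also measured. Of 14 such genes 8 were tested, of which 4 rose and 4 fell (median 0.10), against 33.6% and 34.1% of all tested loci. Cstb, for the intracellular inhibitor cystatin B, rose by 1.11 ± 0.07 on the log2 scale, from 73.3, 71.4 and 66.8 CPM in WT to 171, 142 and 144 CPM in Yme1l-/- cultures (edgeR adjusted p = 1.44e-07). Serpina3g rose from at most 0.153 CPM in WT to 6.46, 6.58 and 6.42 CPM (adjusted p = 4.15e-09), and Cst6 fell (-2.07 ± 0.35, adjusted p = 2.90e-04). Serpina3g, with 2, 5 and 1 fragments in WT, passed the filter only through the Yme1l-/- libraries and Cst6, with 9, 29 and 12 fragments in Yme1l-/- cultures, only through WT, so these differences were a condition of being tested. The same held for Serpinb1a and Serpinb6b, so that 3 of the 4 falls in this list are no support beyond a description. Epithelial markers summed to 33.1 to 35.1 CPM in WT and 0.373 to 0.686 CPM in Yme1l-/- cultures. Of 7 such markers 2 were tested (Krt18 and Epcam), both called lower after passing the filter only through WT. Most of the WT sum was Krt18, with 1048, 1086 and 1012 fragments in WT and 0, 1 and 3 in Yme1l-/- cultures. The keratin gene Krt8 was not tested, with 5, 9 and 15 fragments in WT and 14, 9 and 4 in Yme1l-/- cultures. Endothelial markers summed to 1.72 to 2.81 CPM in WT and 1.94 to 2.2003 CPM in Yme1l-/- cultures, with 2 of 6 tested, of which Kdr rose and Erg, which passed the filter only through WT, was lower. The part of these markers' cell types in the cathepsin falls was not tested.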

How the data were processed

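Stranded poly(A) libraries were mapped by the authors to mouse build GRCm38 with HISAT2 2.0.4, assembled with StringTie 1.3.3 and compared with Cuffdiff 2.2.1, per the study's methods and the submitters' processing notes. The deposited count table holds raw fragment counts per assembled locus. Whether counting used strand and how multi-mapped fragments were treated is not given in the sources used here, so a gene and its antisense or near-identical partner may share fragments. Overlapping genes were merged by the authors into 635 loci, 4 of them among the members. The authors' comparison table also gives FPKM values, combined per genotype without replicates, used here to compare levels between genes, and fold changes, p-values and q-values, which were not used. Cuffdiff could not be repeated on counts.

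Tests were run with edgeR 4.0.16 and limma 3.58.1 under R 4.3.3. The function filterByExpr (minimum count 10) left 13867 loci, TMM factors were 0.9733 to 1.037, and glmQLFit and glmQLFTest (robust, two-sided, no covariate) compared the genotypes. Benjamini-Hochberg adjustment covered all tested loci, and an adjusted p under 0.05 was a call. The biological coefficient of variation was 8.47%. Levels are CPM, and log2 fold changes are Yme1l-/- over WT ± SE. Exact binomial intervals (95%) for pooled ratios cover counting error only. Chromosome medians were subtracted in an alternative fit, which left out 45 tested loci without a single chromosome and 20 on contigs or chromosomes with under 20 tested loci, so that 13802 remained. Positions are from GENCODE (GRCm38) and promoters from RefSeq (GRCm38.p6). The script was tested on simulated data.

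The members and gene lists were chosen with earlier results of these data known. Named by rule were called members of at least 2-fold, the 3 highest and 3 lowest V-ATPase and cathepsin loci with isoforms of the same subunit, the LAMP and tested mucolipin loci, and the up to 3 highest and lowest called genes of each further list, from which at least the highest and the lowest are given, with Tfeb, Tfe3 and Mitf. Other genes described were chosen after their values were seen. Alternatives were RLE and upper-quartile scaling, DESeq2 1.42.0, other filters, a replicate block, each library left out, chromosome medians removed and merged loci left out.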

Additional observations from a re-analysis of the deposited data

How the results depend on the processing

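The counts of members called higher (8 to 11 across settings, 10 as reported) and lower (11 to 17, 15 as reported) stayed within 1.5 times under each alternative, and the V-ATPase counts and those of all loci (8513 to 10051 called, 9387 as reported) did likewise. Cathepsins called lower were 7 to 8 with each library left out and 4 where at least 10 counts in every library were required, which removes Ctsc, Ctsh and Ctsf from the test. The median log2 fold change of members was -0.106 as reported, -0.046 with upper-quartile scaling, -0.287 without the filter, -0.237 without merged loci, and -0.170 to -0.088 with each library left out, lowest without Yme1l-/- culture 1. Values near 0 changed sign, and with each library left out Atp6v1b2 ranged from -0.02 to 0.02, Atp6v1g1 from -0.08 to 0.00 and Ctsa from -0.04 to 0.09. With chromosome medians removed, Atp6v0a1 was at -0.11, Atp6v0a4 at -0.01, Atp6v1d at 0.36, Atp6v1g1 at 0.07 and Atp6v1h at 0.03. Atp6v1b2 was at -0.00 with RLE scaling, DESeq2 or no filter, and at -0.02 without WT culture 2 or Yme1l-/- culture 2. Atp6v1g1 was at 0.03 with upper-quartile scaling and at 0.00 without WT culture 1 or Yme1l-/- culture 2, and Ctsa was at -0.04 without WT culture 3. Atp6v1h was called lower without Yme1l-/- culture 1 (-0.20, edgeR adjusted p = 0.0102). The cause of these changes was not tested. The replicate numbers did not pair the cultures (correlations of their deviations 0.144, -0.0939 and 0.048), and a replicate block gave 10 members higher and 16 lower, with 9794 of all loci called and Atp6v1h added to the lower calls (-0.13, adjusted p = 0.0157). Depth limits Ctsc, Ctsh, Ctsf and Atp6v0e2, which rest on at most 14 fragments per Yme1l-/- library, and 9 members without a fragment cannot be compared.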
